A study of Drosophila melanogaster with 2 samples.

Results

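Small nucleolar RNA (snoRNA) genes and the genes that carry them were examined for binding of CG1603, a zinc-finger protein. The snoRNA genes were all genes of the snoRNA class on the nuclear chromosome arms in the Ensembl annotation of dm6, 269 in number. The host of a snoRNA was the shortest gene whose body contained it whole on the same strand. A host was found for 247 snoRNA genes (91.8%), and these fell into 92 hosts, each counted once, while 22 snoRNA genes had none. The 92 hosts were set beside all 16454 coding and long non-coding genes, a set that includes them. Of the hosts, 28 encoded cytosolic ribosomal proteins, 54 encoded other proteins and 10 coded for no protein.

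Binding was mapped by chromatin immunoprecipitation with sequencing in *Drosophila melanogaster* embryos, taken whole, of mixed sex and aged 0 to 16 h. The embryos were of a stable transgenic line in which CG1603 carries GFP at its C terminus. The labels do not say whether the line kept its own CG1603 gene, and they name an antibody against GFP in one field and CG1603 in another. There was 1 group of 2 biological replicates, numbered 2 and 3, and no control peak list was analysed here. In whole embryos, binding in few cells and weak binding in many cannot be told apart. Sequencing depth is unknown from peak lists, so peaks were compared by their rank within a list, rank 1 being the highest signal. Each replicate list and the pooled list held 30000 peaks, and the reproducible list held 8963. A gene was called bound where a reproducible summit, the position of highest signal in a peak, lay within 500 bp of one of its transcription start sites (TSSs). Genes and peaks are not independent replicates, and no test of chance was made, so member counts are given beside the same count over all genes.

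SnoRNAs guide the chemical modification of ribosomal and spliceosomal RNAs by base pairing. Box C/D snoRNAs, with a C box near the start and a D box near the end, direct the 2′-O-methyltransferase fibrillarin, and box H/ACA snoRNAs, which end in a short ACA box, direct the pseudouridine synthase dyskerin, Nop60B in flies. Most fly snoRNAs have no promoter of their own: they lie in introns and are released from the spliced host transcript, so that the host promoter drives them. Many hosts are ribosomal protein genes, and the non-coding Uhg genes (U snoRNA host genes) are known for snoRNA-bearing introns between exons that code for nothing. By their symbols, 118 of the 269 snoRNAs were box C/D, 120 were box H/ACA and 31 carried no class, and 16 were named as the related Cajal body RNAs. The median snoRNA gene was 134 bp long, and 227 of the 247 hosted ones lay outside the exons of every host transcript, in introns.

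Examples of both classes from ribosomal protein hosts show what the annotated genes hold (RefSeq release 6 assembly, dm6, 5′ to 3′ on the gene's strand). These 6 were chosen because a reproducible summit lay within 500 bp of each. In a snoRNA symbol, Me stands for methylation and Psi for pseudouridine, followed by the ribosomal RNA and the position that is modified. Capitals mark TGATGA and CTGA, the C and D boxes, in the first 3, and the ACA box in the others. Me18S-G1358c lies in RpL15 (chr3L:27267383-27267450, plus strand), Me28S-A774b in RpS12 (chr3L:13023580-13023652, plus strand) and Or-CD11a in RpL28 (chr3L:3222475-3222541, minus strand). Psi18S-1275 lies in RpS29 (chr3R:9778398-9778537, plus strand), Psi28S-1232 in RpL17 (chrX:6743675-6743815, minus strand) and Psi18S-920 in RpL10Ab (chr3L:11822984-11823124, plus strand).
Me18S-G1358c: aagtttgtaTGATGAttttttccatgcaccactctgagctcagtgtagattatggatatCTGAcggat
Me28S-A774b: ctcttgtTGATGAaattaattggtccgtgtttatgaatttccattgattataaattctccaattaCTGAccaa
Or-CD11a: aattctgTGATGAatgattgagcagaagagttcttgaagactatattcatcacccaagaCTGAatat
Psi18S-1275: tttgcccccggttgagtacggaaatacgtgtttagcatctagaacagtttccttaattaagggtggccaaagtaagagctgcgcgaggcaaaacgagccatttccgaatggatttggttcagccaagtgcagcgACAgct
Psi28S-1232: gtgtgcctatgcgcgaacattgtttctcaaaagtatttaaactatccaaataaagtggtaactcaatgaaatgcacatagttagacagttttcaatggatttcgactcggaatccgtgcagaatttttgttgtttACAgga
Psi18S-920: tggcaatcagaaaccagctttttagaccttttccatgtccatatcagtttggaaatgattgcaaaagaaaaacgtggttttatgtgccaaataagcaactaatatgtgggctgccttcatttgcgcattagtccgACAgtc

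The host promoters that the binding results turn on are shown next, from 100 bases before a TSS, the one nearest to the strongest summit, to 30 bases from it onwards (130 bases each, RefSeq release 6 assembly, dm6, 5′ to 3′ on the gene's strand). RpL15 (chr3L:27267155-27267284, plus), RpL5 (chr2L:22536658-22536787, minus), RpS3A (chr4:67178-67307, minus) and RpL14 (chr3L:8600906-8601035, plus) are the ribosomal protein hosts with the strongest peaks outside the arm from which no sequence is printed. CG1142 (chr3R:7473752-7473881, minus) is the strongest such host among the other coding genes, and Uhg2 (chr2L:9894974-9895103, minus) among the non-coding ones. RpS29 (chr3R:9777942-9778071, plus) and RpL28 (chr3L:3222931-3223060, minus) hold the DNA replication-related element TATCGATA. Arpc2 (chr2L:20416957-20417086, plus), a host with no reproducible summit at its promoter, is shown beside them. Capitals mark TATCGATA, its inner stretch CGATA and GGTCACACT (Motif 1), each on either strand, and CTTT that starts within 5 bases of the TSS on the gene's strand, the core of the TCT initiator of ribosomal protein genes.
RpL15: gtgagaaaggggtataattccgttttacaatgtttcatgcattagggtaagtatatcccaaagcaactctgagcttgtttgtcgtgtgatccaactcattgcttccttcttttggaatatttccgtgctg
RpL5: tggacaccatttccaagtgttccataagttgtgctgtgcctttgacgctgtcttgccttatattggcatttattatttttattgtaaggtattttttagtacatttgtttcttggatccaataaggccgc
RpS3A: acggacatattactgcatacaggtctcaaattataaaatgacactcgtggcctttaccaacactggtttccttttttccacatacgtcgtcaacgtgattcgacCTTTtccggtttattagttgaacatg
RpL14: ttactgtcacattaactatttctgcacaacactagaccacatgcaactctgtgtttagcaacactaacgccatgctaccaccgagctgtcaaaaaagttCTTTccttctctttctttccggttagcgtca
CG1142: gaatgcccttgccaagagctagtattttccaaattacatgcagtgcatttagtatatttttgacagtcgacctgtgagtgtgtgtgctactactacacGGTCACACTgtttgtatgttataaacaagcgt
Uhg2: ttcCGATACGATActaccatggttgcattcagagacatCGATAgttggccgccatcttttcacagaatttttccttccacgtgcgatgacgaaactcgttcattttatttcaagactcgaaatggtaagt
RpS29: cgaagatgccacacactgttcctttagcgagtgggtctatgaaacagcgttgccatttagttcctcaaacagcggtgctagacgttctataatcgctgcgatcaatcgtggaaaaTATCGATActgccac
RpL28: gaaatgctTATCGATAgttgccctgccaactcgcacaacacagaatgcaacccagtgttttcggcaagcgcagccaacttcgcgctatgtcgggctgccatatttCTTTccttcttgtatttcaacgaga
Arpc2: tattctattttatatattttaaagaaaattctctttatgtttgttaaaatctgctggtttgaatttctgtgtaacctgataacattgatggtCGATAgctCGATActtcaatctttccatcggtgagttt

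CG1603 was bound at the promoters of 70 of the 92 hosts (76.1%), against 31.9% of all genes. All 28 ribosomal protein hosts were bound, from RpL15 at rank 13 to RpS9 at rank 6962. Of the other coding hosts, 36 of 54 (66.7%) were bound, against 35.2% of all coding genes. Of the non-coding hosts, 6 of 10 were bound, against 13.4% of all long non-coding genes. The share of bound hosts was thus above the background of its class among the other coding and the non-coding hosts. The ribosomal protein hosts are set beside their own class below. Because many hosts carry several snoRNAs, the 70 bound hosts served 195 of the 247 hosted snoRNAs.

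**Figure D1:**
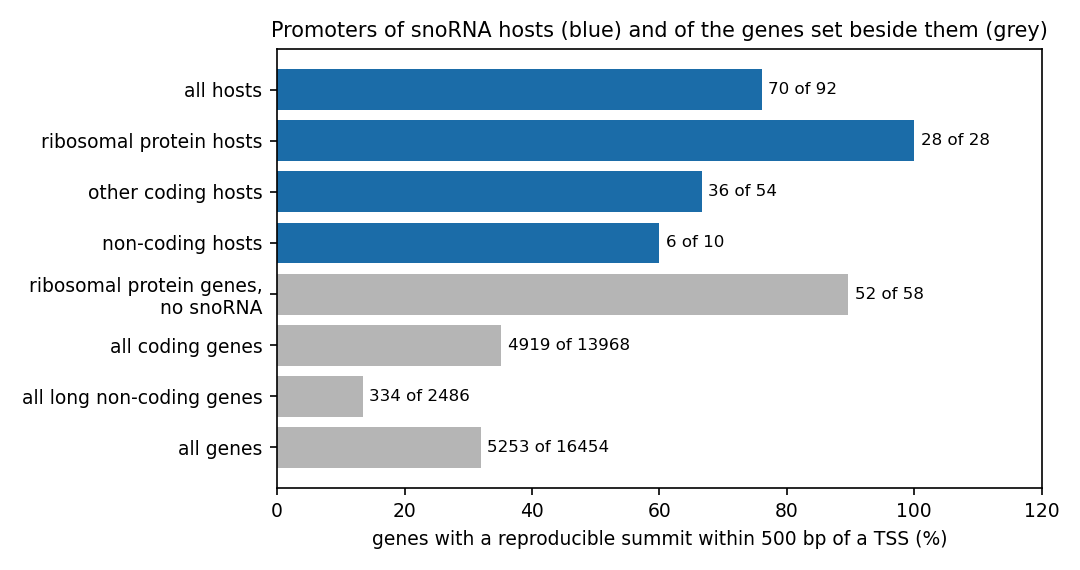
Share of genes (percent) with a reproducible CG1603 summit within 500 bp of a TSS, for the hosts and each class of host (blue) and, beneath them, for the sets of genes they are read against (grey). Bars are shares of the counted genes printed beside them, with no error bar, and hosts stand at 76.1% and all genes at 31.9%.

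The share among ribosomal protein hosts has to be read against ribosomal protein genes not taken as hosts, of which 52 of 58 (89.7%) were bound. Here and below these are called ribosomal protein genes without a snoRNA, with 1 known exception. The set includes RpL23A, at rank 1, whose body holds the 4 snoRNAs that were counted under the shorter gene Uhg7. The 28 hosts therefore stood close to a high background. Their peaks had a median rank of 832, while the 52 bound ribosomal protein genes without a snoRNA had a median rank of 1407.5. Outside the ribosomal protein genes, the median rank was 2419 for the 36 bound coding hosts, against 3209 for all 4919 bound coding genes. The 6 bound non-coding hosts had a median rank of 4638.5 and the 334 bound long non-coding genes one of 3647.5, so that the non-coding hosts had the larger bound share but the weaker median peak. With the stronger 4481 reproducible peaks alone, 3 of the 10 non-coding hosts were bound, against 8.17% of long non-coding genes. Over all 70 bound hosts the median rank was 1761, against 3243 over the 5253 bound genes. The 2240 strongest peaks held 40 of the 70 bound hosts (57.1%), against 34.3% of all bound genes.

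The strongest host peak was at RpL15, which encodes a protein of the large ribosomal subunit and carries 2 box C/D snoRNAs. It ranked 11 in replicate 2, 18 in replicate 3 and 13 in the reproducible list, with its summit 76 bp upstream of the TSS. RpL5, another large-subunit gene with 1 box H/ACA snoRNA, ranked 28, 30 and 27 in the same lists. Prp8 was the only other host within the first 100 reproducible ranks, at 81 in replicate 2, 52 in replicate 3 and 69 in the reproducible list. It encodes the core scaffold protein of the spliceosome and carries 1 box H/ACA snoRNA. These 3 promoters stood high in both replicates, at nearly the same place in each list.

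After them, RpS3A of the small subunit ranked 145 in replicate 2, 162 in replicate 3 and 156 in the reproducible list. RpL14, with 2 box C/D snoRNAs, ranked 261, 160 and 206 in these lists. CG1142, whose role is not given here, ranked 252, 259 and 253 and was the strongest coding host after Prp8 outside the ribosomal protein genes. All 3 were among the 300 strongest peaks of each replicate. RpL30 (306, 264 and 282), RpS29 (339, 293 and 316) and RpL22 (402, 327 and 359) followed in the same order of lists. RpL13A had ranks of 582, 343 and 431, and RpS4 had ranks of 728, 345 and 490. These 5 ribosomal protein promoters, like RpL14, stood higher in replicate 3 than in replicate 2, and all were in the 1000 strongest peaks of both.

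Among the non-coding hosts, Uhg4 had the strongest peak. This gene carries 5 box C/D and 2 box H/ACA snoRNAs and ranked 440 in replicate 2, 429 in replicate 3 and 435 in the reproducible list. Uhg2, with 4 box C/D snoRNAs, ranked 1833, 2034 and 1981. These 2 promoters had a summit close upstream of the TSS, at -74 bp for Uhg4 and -38 bp for Uhg2. Uhg8 ranked 4042, 5567 and 4911, with its summit farther upstream, at -372 bp. Uhg3 ranked 5880, 5194 and 5235, with a summit at -35 bp. Both carry 3 box C/D snoRNAs, and their peaks were of middling strength in every list.

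Uhg1 and Uhg5 carry the most snoRNAs among the non-coding hosts, and their peaks differed more between the replicates. Uhg1 carries 16 box C/D snoRNAs. Its TSS had no summit of any rank within 500 bp in replicate 2, one of rank 4210 in replicate 3 and one of rank 4366 in the reproducible list. A second summit farther upstream, at -648 bp and rank 1729 in the reproducible list, was present in both replicates, at rank 1931 in replicate 2 and 1606 in replicate 3. Uhg5, with 11 box C/D snoRNAs, ranked 9032 in replicate 2, 5532 in replicate 3 and 6826 in the reproducible list. At both promoters replicate 3 held the stronger peak.

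The other 4 non-coding hosts were not bound. Uhg7, whose 4 box C/D snoRNAs lie inside the larger gene RpL23A, had a summit at rank 13982 in replicate 2, none in replicate 3 and one at rank 16968 in the pooled list. The strongest peak of all lists, at the RpL23A promoter, lay 1465 bp upstream of the Uhg7 TSS. A transcript from that promoter would also span the same 4 snoRNAs, so the choice of host decides how they are counted. The same nesting applied to lncRNA:CR45184 (5 box C/D snoRNAs, no summit in any list) within Sf3b3. Sf3b3, a spliceosomal protein gene with 4 snoRNAs of its own, ranked 9471 in replicate 2, 7759 in replicate 3 and 8080 in the reproducible list. The nesting applied as well to lncRNA:CR42491, with 1 box H/ACA snoRNA, within RpL22; this non-coding gene had a replicate 2 summit at rank 20761 only. lncRNA:CR31647, with 1 box C/D snoRNA, had a replicate 2 summit at rank 20019 only. In all, 11 snoRNAs lay in 2 containing genes.

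Hosts of several snoRNAs were bound in 32 of 37 cases (86.5%) and hosts of a single snoRNA in 38 of 55 (69.1%), against 31.9% of all genes. All 17 hosts of 2 or 3 snoRNAs were bound, against 15 of 20 hosts of 4 or more, so the share did not follow the number of snoRNAs. These counts include the 28 ribosomal protein hosts, all of them bound. Among the other coding hosts, 25 of 40 with 1 snoRNA were bound, 6 of 6 with 2 or 3 and 5 of 8 with 4 or more. Hosts with box C/D snoRNAs alone were bound in 29 of 36 cases and hosts with box H/ACA snoRNAs alone in 22 of 27, which are shares of 80.6% and 81.5%. By chromosome arm, bound hosts made up 11 of 15 on 2L, 17 of 23 on 2R, 17 of 22 on 3L, 17 of 21 on 3R, 7 of 10 on X and the single host on 4. The shares on the 5 large arms lay between 70.0% and 81.0%. The share of all genes bound on each arm was not counted, so these have no background of their own.

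Arpc2, which encodes a subunit of the actin-nucleating Arp2/3 complex, carries more snoRNAs than any other host, 17 of box H/ACA. It was not bound: its promoter summit ranked 7540 in replicate 2, 10550 in replicate 3 and 8994 in the pooled list, just past the 8963 reproducible peaks. A reproducible summit of rank 6438 lay inside the gene, 889 bp from the TSS and 402 bp before Psi18S-525a, the first of its snoRNAs. Summits were thus present at this promoter in both replicates, but they were weak.

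The dom gene, which encodes a chromatin-remodelling ATPase and carries 15 snoRNAs, had no replicate 2 summit within 500 bp, one at rank 1790 in replicate 3 and one at rank 6425 in the reproducible list. That replicate 3 summit lay at -31 bp, and a weaker one of rank 7500 lay at 169 bp, beside the reproducible summit at 165 bp. RpS5a, a small-subunit gene with 14 box H/ACA snoRNAs, ranked 2034, 1176 and 1539 in replicate 2, replicate 3 and the reproducible list. The kra gene, of translational control, carries 8 box H/ACA snoRNAs and ranked 1515, 1042 and 1230. RpS5a and kra had promoter peaks in both replicates, and dom had one listed in replicate 3 alone.

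**Figure D2:**
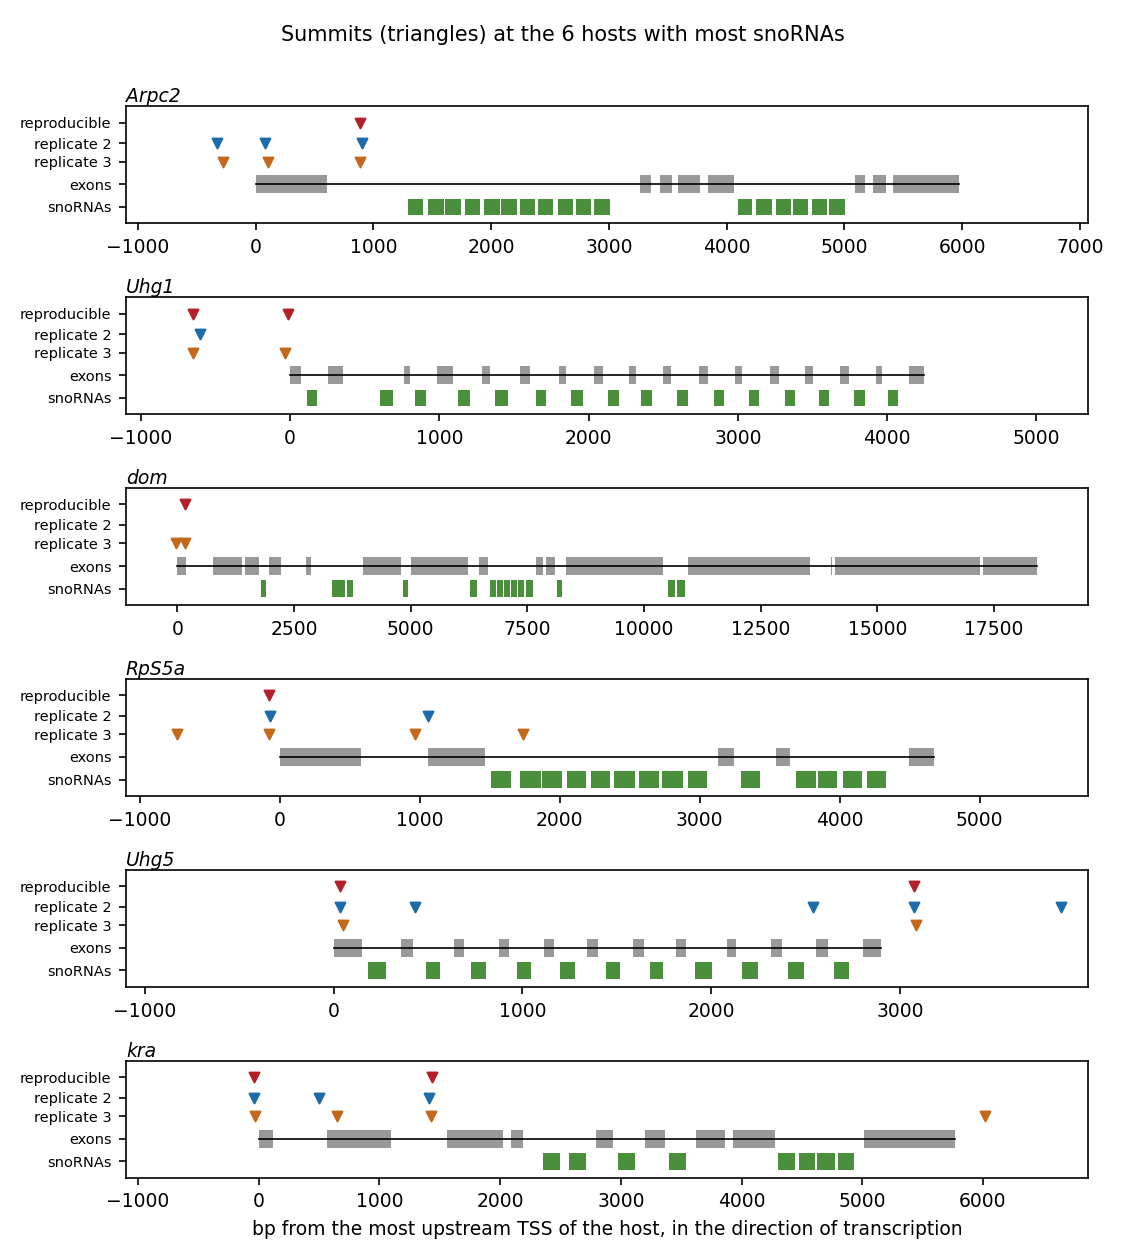
Maps of the 6 hosts with most snoRNAs (Arpc2, Uhg1, dom, RpS5a, Uhg5 and kra), each drawn to its own scale in bp from the most upstream TSS in the direction of transcription, with exons, snoRNAs and summits of the reproducible list and of each replicate. Summits sit mostly near the gene starts, while the 17, 16, 15, 14, 11 and 8 snoRNAs lie along the introns.

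The remaining hosts of 4 or more snoRNAs gave the following ranks in replicate 2, replicate 3 and the reproducible list. Hrb98DE, an hnRNP gene with 7 box H/ACA snoRNAs, had 2389, 2057 and 2160. RpS7, also with 7, had 3006, 2011 and 2406. Nop60B, itself the pseudouridine synthase of box H/ACA particles, carries 6 box C/D and 1 box H/ACA snoRNAs and had 3773, 4699 and 3915. These 3 promoters had peaks of middle rank in both replicates. RpL28, with 5 box C/D snoRNAs, had a stronger peak, at 1148, 596 and 830. RpS16 had 1278, 563 and 834, RpL3 had 1159, 709 and 925, and RpL17 had 650, 471 and 562. At these 4 ribosomal protein promoters replicate 3 ranked higher than replicate 2.

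Of the 22 unbound hosts, 10 had no summit within 500 bp of a TSS in any list. CG10576, with 5 snoRNAs, was among them, although its promoter holds TATCGATA, Motif 1 and a head-to-head neighbour. Aladin, a nuclear pore gene, and CG31191 also had no summit in any list, each with 1 snoRNA. The transcription factor gene lola, with 4 unclassed snoRNAs, had summits within 500 bp at rank 2383 in replicate 2, 7579 in replicate 3 and 9478 in the pooled list. The replicate 2 summit lay at -486 bp, near the limit, and a reproducible summit of rank 2583 lay just past it. Act57B, an actin gene with 1 snoRNA, had 10627, 9876 and 9742. Gp210, another nuclear pore gene, had summits in both replicates, at ranks 7318 and 6825, and none in the pooled list. The hfp gene had a replicate 3 summit at rank 3078 and none in replicate 2 or the pooled list. The unbound hosts were thus a mixed group, and some had a peak among the strongest of a replicate.

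Between the replicates, hosts were found more often in replicate 3. Its 8963 strongest peaks marked 74 of 92 hosts (80.4%), against 33.8% of all genes. The same number of replicate 2 peaks marked 64 hosts (69.6%), against 31.3% of all genes. Both replicates marked 63 hosts (68.5%), against 28.9% of all genes, 11 were marked in replicate 3 alone and Arpc2 in replicate 2 alone. Summits of the full pooled list lay at 76 hosts (82.6%), against 44.9% of all genes.

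Some hosts were among the strongest peaks of replicate 3 with no replicate 2 summit of any rank within 500 bp, 8 of 92 (8.70%), against 2.39% of all genes. Since hosts were marked more often in replicate 3, the 2 shares have unlike bases. Counted among those marked in replicate 3, these were 8 of 74 hosts and 394 of 5557 genes. The reverse was seen at 0 of 92 hosts, against 0.669% of all genes. RpL11 of the large subunit was the strongest of the 8, at rank 383 in replicate 3 and 593 in the reproducible list. The dmt gene, for a protein of sister chromatid cohesion, followed at 610 in replicate 3 and 629 in the reproducible list. RpL36A ranked 1150 in replicate 3 and 1658 in the reproducible list, and dom is described above. Of the bound hosts, 5 of 70 lacked any replicate 2 summit (RpL11, dmt, RpL36A, Uhg1 and dom), against 2.55% of all bound genes. None of the 70 lacked a replicate 3 summit, against 0.685% of all bound genes. A missing summit in the replicate 2 list does not show a lack of reads there. Signals were compared at the strongest summit of each list, which need not be the same peak. The lowest ratio below, at dom, sets a pooled summit at 165 bp (signal 212.5) against a replicate 3 summit at -31 bp (314.4). The replicate 3 summit at 169 bp had a signal of 93.2, so the medians are not matched peak by peak. The pooled signal of these 5 hosts was a median of 1.67 times their replicate 3 signal (from 0.676 to 2.06 times). At the 65 bound hosts with a summit in both replicates it was 1.94 times. At those 65 hosts the pooled signal was close to the sum of both replicates, with a median ratio of 0.997.

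Where both replicates had a summit, the ratio of the replicate 2 rank to the replicate 3 rank shows which was stronger, with values above 1 for a stronger peak in replicate 3. Its median was 1.51 over 26 ribosomal protein hosts, 1.09 over 34 other coding hosts and 1.03 over 5 non-coding hosts. The 51 ribosomal protein genes with no snoRNA had a median of 1.29, and all 5088 bound genes one of 1.06. Replicate 3 was the stronger at 43 of 65 hosts (66.2%), against 56.6% of bound genes. Ribosomal protein promoters, with and without snoRNAs, were the ones that ranked higher in replicate 3, at 20 of 26 hosts and 41 of 51 genes without a snoRNA.

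**Figure D3:**
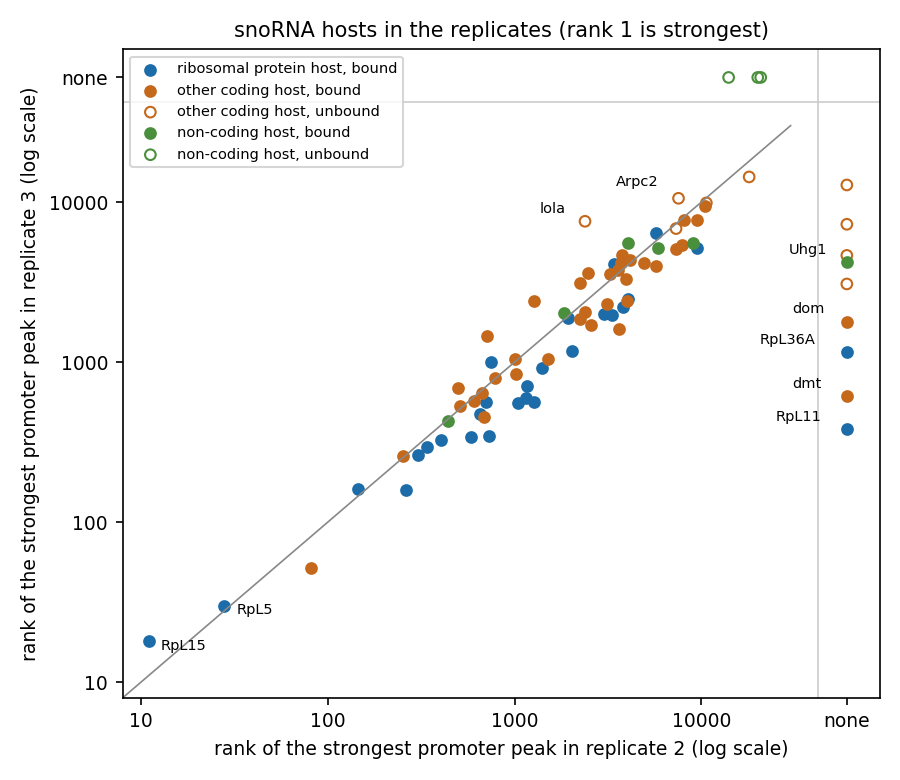
Rank of the strongest summit within 500 bp of a TSS in replicate 2 and in replicate 3 (log axes, rank 1 strongest), with 1 point per host, coloured by class, open where unbound, a diagonal of equal rank and hosts with no summit in a replicate in the margin marked none. Most ribosomal protein hosts lie on the side of replicate 3, where their median rank ratio is 1.51.

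Summits at bound hosts lay close to the TSS. The strongest summit had a median position of -46.5 bp at the 70 hosts, upstream of the TSS, and of -67 bp over all 5253 bound genes. The distance of the nearest summit to a TSS had a median of 50 bp at hosts and 72 bp over all bound genes. At 54 hosts (77.1%) the strongest summit lay within 100 bp of a TSS, against 56.3% of all bound genes. It lay upstream at 57 hosts (81.4%), against 84.3% of bound genes. At 13 hosts (18.6%) there were 2 or more reproducible summits, against 11.6% of bound genes. Host summits were thus nearer to an annotated TSS than those of bound genes in general, and about as often upstream. Each distance was taken to the nearest of all TSSs of a gene, and more TSSs can shorten it. Bound hosts had a median of 2 TSSs, against 1 per tested gene. The comparison was not matched for TSS number or for class of gene.

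**Figure D4:**
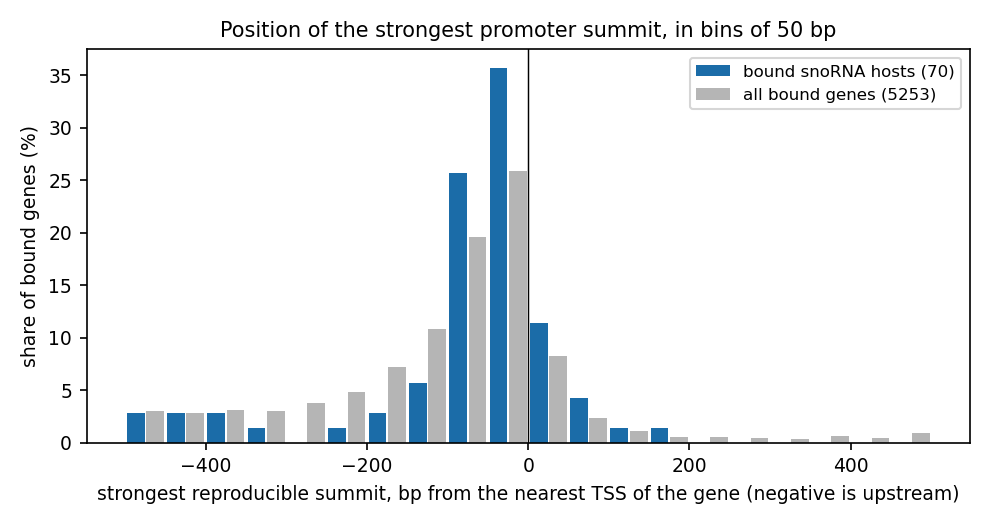
Position of the strongest reproducible summit relative to the nearest TSS (bp, negative upstream), in bins of 50 bp as a percent of genes, for the 70 bound hosts and for all 5253 bound genes. The bin from -50 to 0 bp holds 35.7% of hosts and 25.9% of bound genes.

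Motifs were counted in promoters of 300 bp, from 250 bp before the most upstream TSS to 50 bp from it onwards. TATCGATA, on either strand, was present in 18 host promoters (19.6%), against 8.16% of all promoters. It was found in 8 of 28 ribosomal protein hosts, 17 of 58 ribosomal protein genes without a snoRNA, 10 of 54 other coding hosts and 0 of 10 non-coding hosts. CGATA, which also counts inside every TATCGATA, was present in 58 host promoters (63.0%), against 44.9% of all. Motif 1, GGTCACACT on either strand, was present in 8 (8.70%), against 5.22% of all. CTTT at the TSS, on the gene's strand, was present in 19 (20.7%), against 5.88% of all. It was found at 10 of 28 ribosomal protein hosts, 20 of 58 ribosomal protein genes without a snoRNA and 3 of 10 non-coding hosts (Uhg1, Uhg4 and Uhg5).

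Hosts with each motif were bound somewhat more often than hosts without it, but the classes of host were not separated here. All 28 ribosomal protein hosts were bound, and of them 21 have CGATA, 10 CTTT at the TSS, 8 TATCGATA and 3 Motif 1. The same shares over all genes with and without each motif were not counted. Of the hosts with TATCGATA, 15 of 18 were bound, and of those without it, 55 of 74. With CGATA, 45 of 58 were bound, and without it, 25 of 34. With Motif 1, 7 of 8 were bound, and without it, 63 of 84. With CTTT at the TSS, 17 of 19 (89.5%) were bound, and without it, 53 of 73 (72.6%). RpL15 and RpL5, the strongest hosts, have neither TATCGATA in the promoter counted nor CTTT at its TSS, although both have CGATA there, outside the stretch printed above. RpS29 and RpL28, which have TATCGATA, ranked 316 and 830. A match is a description of the letters only, and binding of any other factor was not measured.

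Hosts also had neighbours that start in the opposite direction within 500 bp more often than other genes, at 43 of 92 (46.7%), against 27.1% of all genes. Such promoters are shared, so a summit cannot be given to one gene of the pair. Of the 43 hosts with such a neighbour 33 were bound, against 54.9% of all genes with one. Of the 49 hosts without one 37 were bound, against 23.4% of all genes without one. The binding of hosts was therefore about as frequent without a shared promoter, 75.5%, as with one, 76.7%. Bound hosts also had a median of 2 annotated TSSs and unbound hosts 1, and more TSSs give more windows for a summit. With the most upstream TSS alone, 65 hosts (70.7%) were bound, against 30.2% of all genes.

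Few of the snoRNA genes themselves were near a summit, at a share that lay within the range of the backgrounds. A reproducible summit lay within 500 bp of 28 of the 269 (10.4%). As a background, a gene of the median length placed at any base would come as near to a summit at 6.94% of bases of the chromosome arms, 6.84% of intron bases of coding genes and 11.2% of intron bases of the hosts. Of the hosted snoRNAs alone, 20 of 247 (8.10%) had a summit nearby, which is below the share of host intron bases and above that of coding introns in general. The 28 snoRNAs had 23 distinct nearest summits, since neighbours in one host share them.

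Most of these were host promoter summits. Of the 35 hosted snoRNAs within 500 bp of a host TSS, 17 had a summit nearby, among them the 6 printed above. Psi18S-920 in RpL10Ab lay 156 bp from the summit of rank 2785, Me18S-G1358c 204 bp from the RpL15 summit of rank 13 and Me28S-A774b 256 bp from the RpS12 summit of rank 634. Psi18S-1275, Or-CD11a and Psi28S-1232 lay 381, 454 and 473 bp from the summits of RpS29, RpL28 and RpL17. Of the 212 hosted snoRNAs farther from a host TSS, 3 (1.42%) had a summit nearby. Intron bases were not split by distance from a TSS in the same way, so neither share has a background. A snoRNA close to a bound TSS is also close to its summit by position alone. Hosted snoRNAs lay a median of 1433 bp from the nearest host TSS and 1510 bp from the nearest reproducible summit.

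**Figure D5:**
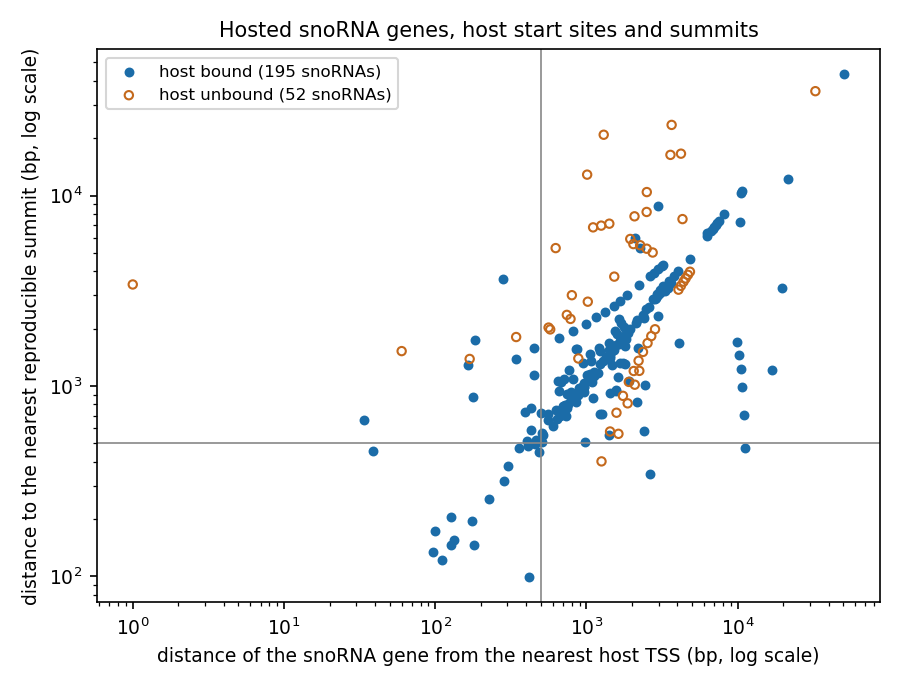
Distance of each hosted snoRNA to the nearest TSS of its host and to the nearest reproducible summit (bp, log axes, a distance of 0 drawn at 1), with 1 point per snoRNA, open where the host is unbound, and lines at 500 bp. Many points lie near equal distances to TSS and summit, and 17 of the 35 snoRNAs within 500 bp of it have a summit within 500 bp.

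A summit within 500 bp of the snoRNA and over 500 bp from every TSS was found for 7 of 269 (2.60%), against 3.61% of arm bases in reach of such a summit. Of these, 2 were hosted, out of 247, and 5 had no host, out of 22. The strongest was near Or-CD4, the last snoRNA of Uhg5, 344 bp away and ranked 1460 in replicate 2, 971 in replicate 3 and 1188 in the reproducible list. The other hosted one, near Psi18S-525a in Arpc2, ranked 6667, 8396 and 6438. In both cases each replicate held the summit, and both hosts carry more than 10 snoRNAs.

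The 22 snoRNA genes without a host had a summit within 500 bp in 8 cases (36.4%), against the same 6.94% of arm bases. Of the 8, 3 shared 1 summit, near Psi28S-1153 at rank 3919, 417 bp from a TSS of another gene. Near Or-CD13 the summit ranked 2041 in replicate 2, 3227 in replicate 3 and 2457 in the reproducible list. Near snoRNA:185 it ranked 5363, 3268 and 3866, and near scaRNA:MeU1:95C-A24, whose symbol names the U1 spliceosomal RNA, 4645, 5012 and 4501. These 3 summits lay 420, 149 and 472 bp from the snoRNA, outside it. Psi18S-176 was the single snoRNA gene of 269 with a reproducible summit inside it, at rank 5501, with rank 4332 in replicate 3 and no such summit in replicate 2. Its summit lay 553 bp from the nearest TSS, just past the 500 bp limit.

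Genes of the snoRNA particles and of ribosomal RNA synthesis were taken as a list of 19, of which 18 matched the annotation. They were bound in 14 of 18 cases (77.8%), against 31.9% of all genes and 35.2% of coding genes. With each peak given to the gene of the nearest TSS, 11 of the 18 were bound, against 24.8% of all genes. All 4 core genes of the box C/D particle were bound. Fib, the methyltransferase fibrillarin, ranked 607 in replicate 2, 570 in replicate 3 and 578 in the reproducible list. Nop56 had 2920, 1975 and 2349, hoip, the kink-turn binding protein, 2349, 1867 and 2141, and nop5 (human NOP58) 5723, 3986 and 4666. The reproducible summit at hoip lay at -469 bp, near the limit of 500 bp. Fib, nop5 and Nop60B are at once particle genes and snoRNA hosts.

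Of the box H/ACA core, Nop60B, Nop10 and Gar1 were bound and NHP2 was not. Nop10 ranked 1719 in replicate 2, 2380 in replicate 3 and 1980 in the reproducible list, and Gar1 ranked 5949, 5595 and 5541. NHP2 had a replicate 3 summit at rank 28015 alone. The 3 assembly genes were all bound. Nopp140, a nucleolar phosphoprotein, had 1298, 1001 and 1152, rept had 3044, 2793 and 2847, and pont had 3830, 8875 and 5291. The genes rept and pont encode the paired ATPases of the assembly complex.

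Of the 7 genes for ribosomal RNA synthesis and processing, 4 were bound. Tif-IA, an initiation factor of RNA polymerase I, ranked 1714 in replicate 2, 1810 in replicate 3 and 1735 in the reproducible list. Ns1 (nucleostemin) had 2047, 1994 and 1990, the acetyltransferase l(1)G0020 had 3904, 3249 and 3551, and wcd, of the U3 particle, had 10659, 7954 and 8562. Polr1A and Polr1B, subunits of RNA polymerase I, had no summit in any list. Mat89Ba, the fly Nol6, had weak summits at 17105 in replicate 2, 10458 in replicate 3 and 12025 in the pooled list. Peaks were thus called at genes of both particle types, and none at the 2 polymerase I subunit genes listed.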

How the data were processed

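Immunoprecipitated chromatin was sonicated to 200 to 800 bp, per the labels, in 2 replicates of 1 group. The authors deposited peak lists for each replicate, for the pooled replicates and a reproducible list, on dm6 per the labels. The aligner and the peak caller were not given in the sources used here. The deposited lines give a signal on an unstated scale and a −log10 q-value, and ranks use the signal alone. All 8963 reproducible peaks were the 8963 strongest of the pooled list, so a peak in both replicates is not required.

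Peaks were ranked by signal within a list, and replicates were compared over their 8963 strongest peaks. Genes came from Ensembl release 115, and promoter and snoRNA sequence from the RefSeq release 6 assembly. Small RNA genes, pseudogenes and transposable elements were not taken as hosts, and where 2 genes contained a snoRNA the shorter was taken. Long non-coding genes were at least 200 bp long. A gene of the median snoRNA length was in reach of a summit at bases within 567 bp of it.

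Named were all non-coding hosts, the 12 strongest hosts, hosts of 4 or more snoRNAs, the 6 unbound coding hosts with most snoRNAs, up to 4 hosts per replicate with no summit in the other, the 6 snoRNAs with the strongest summit away from TSSs and the particle genes. Others (RpS9, RpS12, RpL10Ab, Gp210, hfp, RpL23A and Psi28S-1153) were named after their values were seen, as were the printed examples. The members and lists were chosen with earlier results of these data known, and 94 alternatives were listed for recomputation. No statistical test was made. The counting was tested on simulated summits. Calculations used Python 3.11.15 with NumPy 2.4.6, pandas 2.3.3 and Matplotlib 3.10.9.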

Additional observations from a re-analysis of the deposited data

How the results depend on the processing

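Hosts bound, at 70, ranged from 57 to 76 over the alternatives, each beside a background that moved with it (20.7% to 44.9% of all genes), and from 64 to 74 when 1 replicate was left out. The 10 non-coding hosts gave 3 bound in place of 6 with the stronger 4481 reproducible peaks, a setting with fewer peaks. SnoRNAs with a summit nearby, 28, were 12 within 250 bp, 86 within 1000 bp, 65 in the pooled list and 18 with the stronger peaks. Those away from TSSs, 7, were 3, 11, 42 and 3 under the same settings, which change the distance or the number of peaks. The median host rank, 1761, was 1658 within 250 bp, 1857 within 1000 bp, 2057.5 in the pooled list, 1028 with the stronger peaks, 1857 at the most upstream TSS, 1984.5 with each peak given to the gene of the nearest TSS and 1665 with every containing gene as a host. It was 1823 to 1879 when a replicate was left out. The other 76 values stayed within 1.5 times the main count, or within its spread. Depth is unknown, so a promoter without a summit may hold binding too weak to be called. No paired analysis was possible because the series has 1 group.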
